A study of Mus musculus with 14 samples.

Results

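The genes of calcineurin and of the NFAT transcription factors were examined in spleen T cells from BC CML and CP CML mice. The 10 members were chosen by symbol: the calcineurin subunits Ppp3ca, Ppp3cb, Ppp3cc and Ppp3r1, the NFAT factors Nfatc1, Nfatc2, Nfatc3 and Nfat5, and the regulators Rcan1 and Dyrk1a. All 10 were found among the 24091 genes listed with counts, and all 10 were among the 12248 genes with enough reads for a test. The CP CML mice were Mir142+/+BCR-ABL (n = 8) and the BC CML mice were Mir142-/-BCR-ABL (n = 6). All 14 mice carried the BCR-ABL transgene, driven by a tetracycline-controlled activator under the SCL promoter, and in all of them BCR-ABL had been induced by tetracycline withdrawal (tet-off) for 3 weeks. The mice were on the C57BL/6J background and were used at an age of 6 to 10 weeks. The Mir142 deletion was present in all cells of the BC CML mice, not only in T cells. Total RNA from 200000 sorted T cells per mouse was sequenced as 1 mRNA library, and the study considered Nfatc1 among the genes upstream of PD-1.

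Calcineurin is a calcium- and calmodulin-dependent phosphatase made of a catalytic A subunit and a regulatory B subunit. When the T cell receptor is engaged, calcium enters the cell, calcineurin is activated and removes phosphates from NFATc proteins, and these move into the nucleus to switch on cytokine and checkpoint genes. Kinases such as DYRK1A put the phosphates back, RCAN1 binds and inhibits calcineurin, and NFAT5, which answers to osmotic stress, lacks the calcineurin docking region of the other factors. Drugs that block calcineurin, such as cyclosporin and tacrolimus, suppress T cell responses by this route. These counts measure mRNA and carry no information on phosphatase activity or on where NFAT proteins lie in the cell.

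The deleted gene encodes a miRNA with 2 arms, both of which are printed here because the deletion removes them and because their seeds (bases 2 to 8, in capitals) were searched for in the 3′UTRs of the members. The mature sequences are from RefSeq (GRCm38.p6), where the arms lie at chr11:87756867-87756887 and chr11:87756903-87756925 on the plus strand.
miR-142-5p: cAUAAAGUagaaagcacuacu
miR-142-3p: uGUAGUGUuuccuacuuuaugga
Matches of 3 kinds were counted in the longest 3′UTR of each gene in the GENCODE vM21 annotation: the 8mer (ACTTTATA for the 5p arm, ACACTACA for the 3p arm), the 7mer-m8 (the first 7 bases of the 8mer) and the 7mer-A1 (its last 7 bases), in the sense strand only and with shorter matches inside an 8mer not counted again. The sites of the members that changed are shown with the bases around them in lower case.
Ppp3ca, 5p 7mer-A1, chr3:136936334-136936340: ctggcgtgtgCTTTATAttctcgaaaa
Ppp3ca, 3p 7mer-A1, chr3:136936721-136936727: ccaggtcattCACTACAgcctcaagcc
Nfat5, 5p 8mer, chr8:107373590-107373597: atccagagctACTTTATAaattctctaa
Nfat5, 5p 8mer, chr8:107375779-107375786: caaaatgaccACTTTATAtctgggtcct
Nfat5, 3p 7mer-A1, chr8:107374730-107374736: tctactctccCACTACAtccttccctt
Nfatc3, 5p 7mer-A1, chr8:106128582-106128588: agctcttactCTTTATAaaataaagtg
Ppp3r1, 5p 7mer-m8, chr11:17198913-17198919: cgagtctgtaACTTTATttatatctct
All 7 sites lie on the plus strand, in the annotated 3′UTR of their gene. Nfatc2 held 1 further 5p 7mer-A1 match. No match of these kinds was found in the 3′UTRs of Nfatc1, Ppp3cb, Ppp3cc, Rcan1 and Dyrk1a. No member held the 8mer of the 3p arm, which was present in 3.04% of the 11503 tested genes with an annotated 3′UTR. Of the 1795 tested genes with a 3′UTR of like length to that of Ppp3ca (2502 bases), 47.7% held at least 1 match of any kind and 19.3% at least 1 to the 3p arm. Of the 168 genes like Nfat5 (8365 bases), 88.1% held a match of any kind, 49.4% one to the 3p arm and 20.2% at least 1 8mer of the 5p arm. The 3′UTR of Ppp3cc had 219 bases, and 4.94% of genes with one of like length held a match. Of the members with a match, Ppp3ca and Nfat5 rose, Nfatc3 and Ppp3r1 fell and Nfatc2 did not pass the test. Only Ppp3ca and Nfat5 held a match to the 3p arm, and only Nfat5 held an 8mer. The part of these sites in the changes was not tested.

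The depth was between 15703702 and 19914531 reads per library. Mir142 had between 302 and 650 reads in each CP CML mouse and 0 in each BC CML mouse. T cell markers were present throughout, with Cd3e at a median of 412 normalized counts (CPM, relative to a library size adjusted by edgeR's TMM method) in CP CML and 416 in BC CML. Of the 10 T cell identity genes, 6 were higher, 1 lower and 3 did not pass, Cd3e among these, and the CD3 chain gene Cd3g rose from a median of 453 to 685 CPM without overlap. The summed level of these genes had a median of 3806 CPM in CP CML and 4403 in BC CML. Marker levels differed between the groups: Cd4 had a median of 403 CPM in CP CML and 249.5 in BC CML, and Cd8a 704 and 1269, with no overlap between groups for either gene. Cd8b1, the partner chain of Cd8a, did not pass, with overlapping mice and medians of 451 and 452 CPM (log2 fold change 0.07, adjusted p = 0.352). Of the marker lists, 8 of 9 naive T cell genes were lower and 12 of 14 effector and memory genes higher in BC CML. Higher too were 5 of 6 NK cell, 12 of 13 myeloid and 6 of 7 B cell genes tested. In the erythroid list and in the basophil and mast cell list, 2 of 5 tested genes were higher in each. Of all tested genes, 32.6% were higher and 32.7% lower. The summed myeloid markers were between 64.5 and 721 CPM in CP CML and between 835 and 2230.5 in BC CML, and the summed naive markers between 5758 and 7194 and between 3536 and 4935. In such bulk libraries, fewer cells of a type and less RNA per cell cannot be told apart. The mouse names of each group share a prefix of their own, which the sources used here do not explain. Whatever the prefix stands for cannot be told apart from genotype.

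Of the 10 members, 7 had an adjusted p-value below 0.05 in BC CML against CP CML (edgeR's quasi-likelihood test, Benjamini-Hochberg adjustment over all tested genes), 5 higher and 2 lower. The same test called 65.2% of all tested genes, 32.6% higher and 32.7% lower, so the share of members called was near that of all genes. The sizes set 3 members apart from the others: Ppp3ca and Ppp3cc rose and Nfatc3 fell by more than 0.5 on the log2 scale, with no overlap between the groups of mice. Among all tested genes 28.5% were called with a change of at least this size (18.3% higher and 10.2% lower), and in 36.9% the groups did not overlap (19.3% with every BC CML mouse above, 17.6% below). The other 4 called members (Nfat5, Rcan1, Nfatc1 and Ppp3r1) changed by 0.28 or less and had overlapping mice. The median log2 fold change of the 10 members was 0.08, beside -0.01 for all tested genes.

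**Figure D1:**
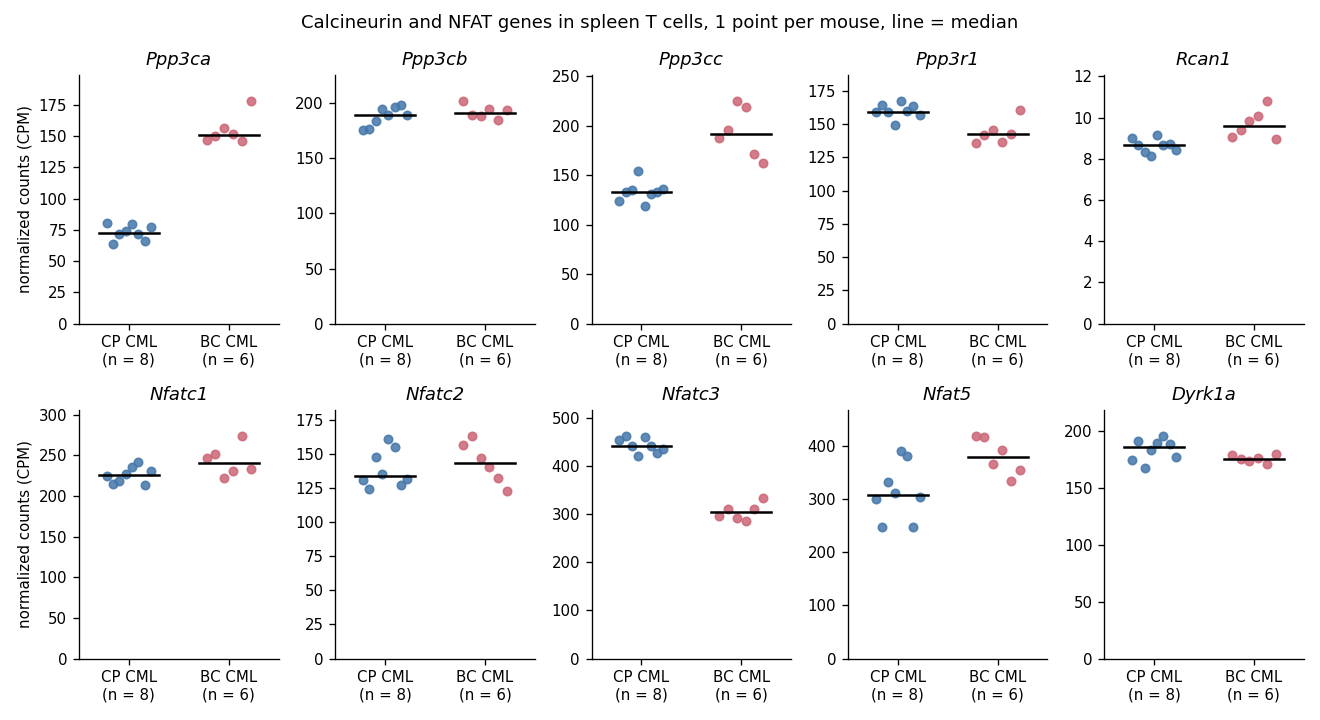
Normalized counts (CPM, y axis from 0) of the 10 genes in each mouse, with CP CML (n = 8, blue) and BC CML (n = 6, red) side by side and a line at each group's median. The groups separate for Ppp3ca, Ppp3cc and Nfatc3, and their mice overlap for the other 7 genes.

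Among the calcineurin subunits, the catalytic subunit gene Ppp3ca showed the largest change of all members. Ppp3ca, which encodes the alpha form of the A subunit and lies on chromosome 3 (136670066 to 136937727 of mm10, plus strand), had 63.9 CPM in the lowest, 72.7 in the median and 80.4 in the highest CP CML mouse. In BC CML the lowest mouse had 146, the median was 151 and the highest mouse had 178. The groups were far apart, and BC CML replicate 6 stood above the other 5, the next of which had 157. The level was 2.12-fold higher in BC CML. On the log2 scale this was 1.09 ± 0.06 (SE; adjusted p = 2.2e-11), larger in size than the change of 88.5% of tested genes. Without replicate 6 the log2 fold change was 1.04.

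Ppp3cc, which encodes the gamma form of the A subunit (minus strand of chromosome 14, 70217865 to 70289497), moved in the same direction with a smaller change. Its CP CML mice had between 119 and 154 CPM (median 133) and its BC CML mice between 162 and 224 (median 192). The groups did not overlap, although BC CML replicates 5 and 6, with 171 and 162 CPM, were closer to CP CML than the other 4. The change was 1.45-fold, or 0.54 ± 0.07 on the log2 scale (SE; adjusted p = 3.7e-06). The listed span of Ppp3cc overlaps that of Snord58b, a multi-copy small nucleolar RNA gene with at most 44 reads in any library.

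Ppp3cb, which encodes the beta form of the A subunit (minus strand of chromosome 14, 20499364 to 20546573), stood level in both groups. It had between 176 and 198 CPM in CP CML (median 189) and between 184 and 201 in BC CML (median 191). Only 1 BC CML mouse was above the highest CP CML mouse and none below the lowest. The log2 change was 0.03 ± 0.04 (SE; adjusted p = 0.491). Its interval, at 2 standard errors, ran from -0.04 to 0.10 and does not contain a change of the size seen for either of the other catalytic genes. Its 5′ end overlaps 1810062O18Rik on the opposite strand, which had at most 47 reads in a library.

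Ppp3r1 encodes the B subunit that every catalytic form needs (plus strand of chromosome 11, 17151139 to 17200380). It ran against Ppp3ca and Ppp3cc by a small amount, from a median of 159 CPM in CP CML (149 to 167) to 142.1 in BC CML (136 to 160.5). Of the BC CML mice, 5 were below every CP CML mouse, and replicate 6 was inside the CP CML range. On the log2 scale the difference was -0.15 ± 0.04 (SE; adjusted p = 0.0028). Without replicate 6 it was -0.19, and with the naive T cell marker score (the mean log2 CPM of the naive genes) in the fit it was -0.07 and not called (adjusted p = 0.735). Ppp3r2, the testis form of the B subunit, was listed at 0 reads in all 14 libraries.

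To compare levels between genes, CPM was divided by the gene length listed with the counts, giving the reads per kilobase (RPKM). In CP CML, Ppp3cc was the highest catalytic gene at 65.2 ± 5.07 RPKM (SD, n = 8), followed by Ppp3cb at 41.3 ± 1.92 and Ppp3ca at 14.9 ± 1.23. In BC CML the order was the same, with 94.7 ± 12.2 RPKM for Ppp3cc (SD, n = 6), 42.1 ± 1.31 for Ppp3cb and 31.7 ± 2.42 for Ppp3ca, and in neither group did the mice of neighbouring genes in this order overlap. The sum of the 3 catalytic genes went from 121 ± 5.77 RPKM in CP CML to 168.6 ± 11.7 in BC CML. Of that sum, Ppp3ca made up 12.3% ± 1.23 in CP CML and 18.9% ± 2.12 in BC CML, Ppp3cb 34.0% ± 1.39 and 25.1% ± 1.77, and Ppp3cc 53.6% ± 2.03 and 56.0% ± 3.58. The mice of the groups did not overlap in the share of Ppp3ca or Ppp3cb, and did in that of Ppp3cc. The level of Ppp3r1 over the summed catalytic genes was 0.393 ± 0.029 in CP CML (0.333 to 0.427) and 0.255 ± 0.028 in BC CML (0.224 to 0.301), again without overlap. These shares and ratios are descriptions of mRNA levels with no test of their own, and they take the listed gene length for the length of the transcripts in the cells.

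**Figure D2:**
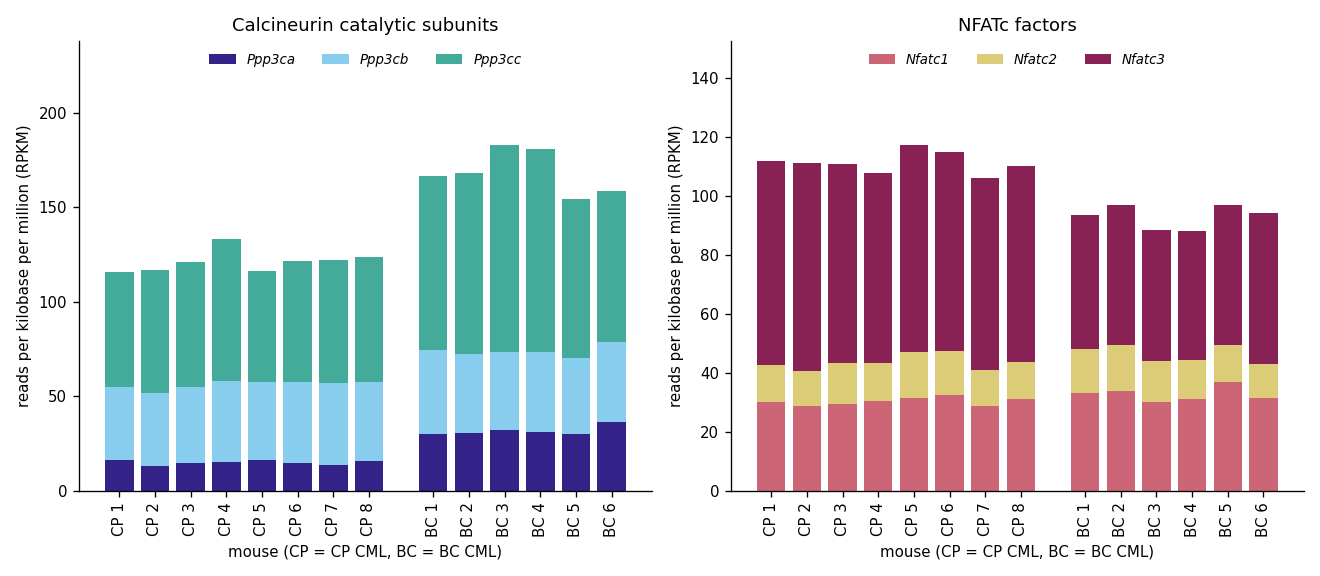
Level per gene length (RPKM, stacked from 0) of the 3 catalytic calcineurin genes (left) and the 3 NFATc genes (right) in each of the 14 mice. The catalytic stack is taller in every BC CML mouse (154 to 183 RPKM) than in every CP CML mouse (116 to 133), and the NFATc stack is shorter (88.2 to 97.2 against 106 to 118).

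Among the NFAT factors, Nfatc3 fell in every BC CML mouse. Nfatc3 (plus strand of chromosome 8, 106058840 to 106130537) encodes NFATc3, also called NFAT4. It had between 420.1 and 461 CPM in the CP CML mice (median 441) and between 285 and 334 in the BC CML mice (median 303). The lowest CP CML mouse was above the highest BC CML mouse, replicate 6, and the mice within each group lay close together, with coefficients of variation of 3.43% and 5.83%. The level was 1.45-fold lower in BC CML (log2 -0.54 ± 0.04, SE; adjusted p = 1.8e-09). Its size exceeded that of 72.6% of tested genes.

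Nfatc1 (minus strand of chromosome 18, 80606205 to 80713071) encodes NFATc1, also called NFAT2. Its CP CML mice lay between 213 and 242 CPM (median 226) and its BC CML mice between 223 and 274 (median 240.2). The groups overlapped: 3 of 6 BC CML mice were above the highest CP CML mouse, with replicate 5 the highest. The difference of 7.75% (log2 0.11 ± 0.05, SE; adjusted p = 0.045) was at the threshold and lost it in 9 of 14 fits with a mouse left out, with the lowest value, 0.07, without BC CML replicate 5. Among these fits it kept the threshold only without CP CML replicate 5 or 6 or BC CML replicate 3, 4 or 6. Of 10 other alternative fits, 6 lost it. Among these were the likelihood ratio test (adjusted p = 0.060), the replicate number as a block (adjusted p = 0.106) and the myeloid (adjusted p = 0.393) or B cell marker score (adjusted p = 0.572) as a covariate. With the naive T cell marker score its direction turned (-0.18). Of all tested genes, 21.9% had a change smaller in size.

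Nfatc2 (minus strand of chromosome 2, 168476410 to 168601657) encodes NFATc2, also called NFAT1. It had between 124 and 161 CPM in CP CML (median 134) and between 122 and 163 in BC CML (median 144). Nearly the whole range was shared by both groups. The log2 change of 0.04 ± 0.07 (SE; adjusted p = 0.592) had an interval from -0.10 to 0.19. Nfatc4, the remaining calcium-dependent factor, was listed at 0 reads in all 14 libraries.

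Nfat5 (plus strand of chromosome 8, 107293470 to 107379517) was the most variable member among the CP CML mice, with a coefficient of variation of 16.9%. It had between 248 and 391 CPM in CP CML (median 308) and between 334 and 419 in BC CML (median 380). All 6 BC CML mice were above the CP CML median, but CP CML replicates 5 and 6, at 391 and 381 CPM, were above the BC CML median. CP CML replicates 2 and 7 were the lowest at 248 each. Nfat5 was higher by 0.28 ± 0.10 on the log2 scale (SE; adjusted p = 0.025). It passed the threshold in 12 of 14 fits with a mouse left out and missed it without BC CML replicate 1 (0.25, adjusted p = 0.056) or replicate 2 (0.25, adjusted p = 0.057). It also missed it with the replicate number as a block (0.23, adjusted p = 0.132) and with the myeloid (0.37, adjusted p = 0.051) or B cell marker score (0.31, adjusted p = 0.090) as a covariate, a score being the mean log2 CPM of a marker list, and with the naive T cell score its direction turned (-0.39).

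Per gene length, Nfatc3 was the highest of the 3 NFATc genes in both groups, at 67.7 ± 2.32 RPKM in CP CML (SD, n = 8) and 46.6 ± 2.72 in BC CML (SD, n = 6). Nfatc1 followed at 30.4 ± 1.36 and 32.8 ± 2.47, and Nfatc2 at 13.3 ± 1.31 and 13.7 ± 1.44. The sum of the 3 went from 111 ± 3.66 to 93.1 ± 3.96 RPKM. In this sum the share of Nfatc3 was 60.8% ± 1.44 in CP CML and 50.1% ± 2.12 in BC CML, and that of Nfatc1 27.3% ± 0.892 and 35.2% ± 1.62. The ratio of Nfatc3 to Nfatc1 was between 2.07 and 2.44 in the CP CML mice and between 1.29 and 1.62 in the BC CML mice. The larger share of Nfatc1 thus came with a mean level of Nfatc3 that fell by 21.1 RPKM and a mean level of Nfatc1 that differed by 2.36 RPKM. Nfat5, which is not part of this sum, stood at 17.1 ± 2.90 and 20.7 ± 1.89 RPKM.

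Over all 10 members, Nfatc3 and Ppp3cc led the order of levels in CP CML with overlapping mice. Ppp3r1, Ppp3cb and Nfatc1 followed, each clear of its neighbours, and then Dyrk1a, Nfat5, Ppp3ca and Nfatc2, each of which overlapped the next. Rcan1 was last at 3.42 ± 0.136 RPKM (SD, n = 8). In BC CML, Ppp3cc stood alone at the top, Nfatc3 overlapped Ppp3r1 and Ppp3r1 overlapped Ppp3cb, and Ppp3ca moved up to overlap Nfatc1.

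Rcan1, the calcineurin inhibitor gene and itself a known NFAT target (minus strand of chromosome 16, 92391951 to 92466169), was low in all mice. It had between 8.12 and 9.17 CPM in CP CML (median 8.66) and between 8.95 and 10.8 in BC CML (median 9.61). In BC CML, 4 of 6 mice were above every CP CML mouse, and replicates 1 and 6 were within the CP CML range. These levels rest on between 134 and 165 reads per library in CP CML and between 151 and 199 in BC CML, the fewest of any member. The log2 change of 0.17 ± 0.07 (SE; adjusted p = 0.041) lost the threshold in 9 of 14 fits with a mouse left out, and kept it without CP CML replicate 1 or 5 or BC CML replicate 1, 2 or 6. Rcan1 has an upstream start and an internal start, and the internal one is known to respond to NFAT. The window from 250 bases before to 50 bases after the internal start, at chr16:92400029-92400328 on the minus strand, is printed from RefSeq (GRCm38.p6) because of that known response. It holds 3 copies of the NFAT core motif GGAAA or its complement TTTCC, in capitals.
Rcan1 internal start: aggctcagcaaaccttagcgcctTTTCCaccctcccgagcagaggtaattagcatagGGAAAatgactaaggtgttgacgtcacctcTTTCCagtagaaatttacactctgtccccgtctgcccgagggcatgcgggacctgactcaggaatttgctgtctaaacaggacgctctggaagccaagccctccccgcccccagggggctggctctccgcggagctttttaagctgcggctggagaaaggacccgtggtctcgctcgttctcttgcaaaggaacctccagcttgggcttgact
As many copies were found in 9.42% of the 32851 windows of this kind in the genome, and at least 1 copy in 61.3%. The window at the upstream start held none. Of the windows found for the other members, that of Ppp3cb held 4 copies (as many in 2.65% of windows) and 1 of Nfatc2 held 3, and neither of these genes passed the test. The window of Nfat5, which was called higher, held 2, and that of Ppp3r1, which was called lower, held 0. No window of Dyrk1a or Nfatc3 held more than 2. Windows of Ppp3ca, Ppp3cc and Nfatc1 were not examined, and the part of these copies in the changes was not tested. The counts are per gene, so reads from the 2 starts cannot be told apart.

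Dyrk1a (plus strand of chromosome 16, 94570206 to 94695519), which encodes a kinase that phosphorylates NFAT for its export from the nucleus, had between 168 and 195 CPM in CP CML (median 186) and between 171 and 180 in BC CML (median 176). All 6 BC CML mice were below the CP CML median but inside the CP CML range, and they lay closest together of any member, with a coefficient of variation of 1.80%. Its log2 change of -0.06 ± 0.04 (SE; adjusted p = 0.154) had an interval from -0.13 to 0.01.

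**Figure D3:**
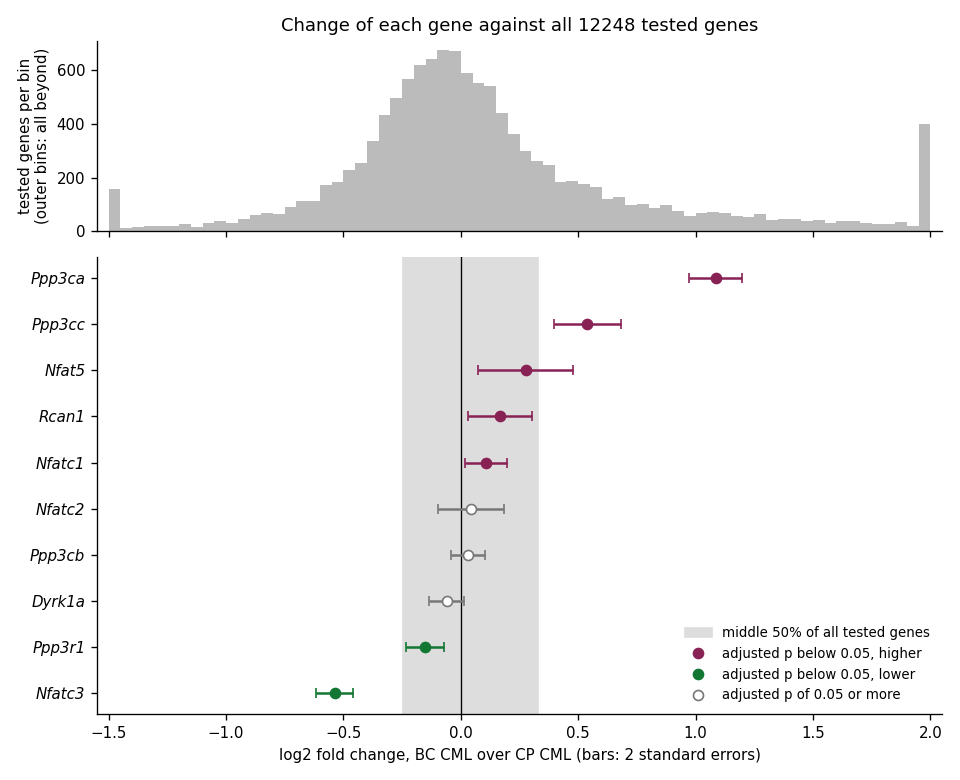
Log2 fold change of BC CML over CP CML for each of the 10 genes, with bars of 2 standard errors (lower), under a histogram of all 12248 tested genes on the same axis, whose outermost bins hold all genes beyond them (upper). Ppp3ca (1.09), Ppp3cc (0.54) and Nfatc3 (-0.54) lie outside the grey band that holds the middle 50% of all tested genes (-0.25 to 0.33), and the other 7 lie inside it.

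Store-operated calcium entry supplies the calcium that activates calcineurin, and the list of its genes also holds the pumps that clear calcium from the cytosol. Of these 18 genes, all tested, 7 were higher, 5 were lower and 6 did not pass the test (66.7% called, beside 65.2% of all tested genes, median log2 fold change -0.02). In 6 of the 18 all BC CML mice lay above all CP CML mice, where 19.3% of all tested genes did so, and in 1 all lay below, where 17.6% did. The 3 that rose most encode calcium pumps: Atp2a2, the pump of the endoplasmic reticulum, with 190 to 216 CPM in CP CML and 275 to 324 in BC CML (log2 fold change 0.55, standard error 0.04), Atp2b1, a pump of the plasma membrane, with 218 to 251 and 323 to 344 (0.49, standard error 0.04), and Atp2b4, another, with 88.4 to 103 and 80.7 to 146 (0.44, standard error 0.11). In Atp2b4, the higher gene whose groups overlapped, BC CML replicate 6 was below every CP CML mouse and the other 5 above every one. The other 4 higher genes, named after their values were seen, were Itpr2 (0.44), a calcium release channel, Stim2 (0.38), a sensor of stored calcium, Calm2 (0.32), a calmodulin gene, and Orai3 (0.29), a channel subunit. The 3 that fell most were Orai2, a channel subunit, from a median of 207 to 139 CPM (-0.53, standard error 0.05), Orai1, the main pore subunit, from 20.2 to 15.5 (-0.39, standard error 0.10), and Plcg1, the phospholipase that starts calcium release, from 414 to 358 (-0.24, standard error 0.06). The groups did not overlap for Orai2 and did for Orai1 and Plcg1. The other 2 lower genes, named after their values were seen, were Itpr1 (-0.16), another release channel, and Itpkb (-0.13), a kinase that converts the ligand of that channel. After adjustment for the naive T cell score, 3 of these 18 genes were called, beside 2297 of all 12248 tested genes. Orai2 (-0.20, adjusted p = 0.294), Orai1 (-0.80, adjusted p = 0.063), Plcg1 (-0.46, adjusted p = 0.053) and Atp2b4 (0.21, adjusted p = 0.699) were among those that lost their calls. Plcg1 lost its call also with the myeloid (adjusted p = 0.092) and B cell scores (adjusted p = 0.140).

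Of 16 further regulators of calcineurin and NFAT, 11 could be tested, of which 4 were higher, 3 lower and 4 did not pass. The share called was 63.6%, beside 65.2% of all tested genes, and the median log2 fold change was 0.03. Rcan2, Ppp3r2 and Nfatc4 were at 0 reads in every library, the noncoding RNA Nron had at most 1, and Homer2 had at most 38. Rcan3, a paralog of Rcan1, fell in every BC CML mouse, from a median of 45.8 CPM (41.8 to 56.0) to 22.9 (18.9 to 25.7) (log2 change -1.06, standard error 0.09, adjusted p = 9.9e-09). Nfatc2ip, which encodes an NFAT-binding protein, fell from 37.5 to 25.2 CPM (-0.54, standard error 0.05), and Cbl, a ubiquitin ligase, from 335 to 304 (-0.19, standard error 0.05). Fkbp1a, the tacrolimus-binding protein, rose from 105 to 137 CPM (0.40, standard error 0.05) and Fbxw11, a ubiquitin ligase subunit, from 74.6 to 97.6 (0.37, standard error 0.04). Lrrk2, a kinase that holds NFAT in the cytoplasm, had the largest difference (1.52, standard error 0.39) but between 2.81 and 14.5 CPM in CP CML and between 9.86 and 37.8 in BC CML. The remaining risen gene, Akap5, an anchoring protein named after its values were seen, had 0.87 at a low level. The 4 that did not pass were Cabin1, Ppia, Chp1 and Homer3. The mice highest in Lrrk2, CP CML replicate 8 and BC CML replicate 6, were also the highest of their groups in the myeloid marker score, and with that score as a covariate the log2 fold change of Lrrk2 was 0.31 (adjusted p = 0.567). The B cell score gave 0.30 (adjusted p = 0.253). Both scores also follow the group (correlations 0.73 and 0.70 over the 14 mice), and the part of cell makeup in Lrrk2 was not tested. With the naive score 2 of the 11 tested genes were called, Nfatc2ip and Cbl, beside 2297 of all 12248 tested genes. The calls of Rcan3 (-0.42, adjusted p = 0.164), Fkbp1a (0.20, adjusted p = 0.399), Fbxw11 (0.21, adjusted p = 0.187), Lrrk2 (0.96, adjusted p = 0.649) and Akap5 were lost.

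Of 16 kinases and nuclear transport genes, all tested, 9 were higher, 3 lower and 4 did not pass. The share called was 75%, beside 65.2% of all tested genes, and the median log2 fold change was 0.10. Dyrk1b, the nearest relative of Dyrk1a, rose from a median of 9.95 CPM (8.86 to 12.2) to 19.6 (14.9 to 22.9) (log2 change 0.93, standard error 0.09, adjusted p = 1.1e-07). Mapk9, which encodes the stress kinase JNK2, rose by 0.39 and the import receptor gene Kpnb1 by 0.18, each without overlap between groups. Mapk14, which encodes p38 alpha, fell by 0.20, the casein kinase gene Csnk1a1 fell by 0.15 and the export receptor gene Xpo1 fell by 0.14 on the log2 scale. Adjusted for the naive score, Dyrk1b had 0.42 (adjusted p = 0.239), Kpnb1 0.16 (adjusted p = 0.316), Csnk1a1 -0.26 (adjusted p = 0.071) and Xpo1 -0.04 (adjusted p = 0.832), none of them still called, and Xpo1 was not called with the myeloid score either (adjusted p = 0.072). Of the 16 genes, 3 were called with the naive score and 6 with the myeloid score, beside 2297 and 5947 of all 12248 tested genes. Csnk1e, Dyrk2, Dyrk4 and Mapk8 did not pass in the reported fit. Dyrk3, named after its values were seen, had a larger log2 fold change of 2.06 at a very low level.

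NFAT binds DNA together with other factors. Of 17 partner genes, all tested, 7 were higher, 7 lower and 3 did not pass (median log2 fold change -0.07). The share called was 82.4%, beside 65.2% of all tested genes. With a change of at least 0.5, 9 of the 17 were called, where 28.5% of all tested genes were. Mef2c rose from a median of 4.57 CPM (1.99 to 9.245) to 56.5 (48.2 to 89.2) (log2 change 3.56, standard error 0.27, adjusted p = 4.5e-08). Irf8 rose from 22 to 54.5 CPM (1.20, standard error 0.13) and Maf from 58.4 to 82.6 (0.55, standard error 0.10), both without overlap. Mef2c and Irf8 are also expressed by myeloid and B cells, whose markers were higher in the BC CML libraries. With the myeloid score as a covariate Mef2c had 2.72 and Irf8 1.00, and with the B cell score 2.97 and 0.75, all with adjusted p-values below 0.05. With the naive score 5 of the 17 genes were called, beside 2297 of all 12248 tested genes. Irf8 (0.62, adjusted p = 0.289) was among those that lost their calls, and the direction of Maf turned (-0.20, adjusted p = 0.598). Foxp3, the regulatory T cell factor, fell from a median of 94.1 CPM (84.1 to 103) to 26.5 (25.6 to 36.5) (log2 change -1.73, standard error 0.08, adjusted p = 1.4e-11). Runx1 fell from 100.96 to 66.2 CPM (-0.61, standard error 0.08) and Batf, an AP-1 factor, from 34.6 to 22.8 (-0.61, standard error 0.06), each without overlap. Fos, Fosl2 and Mef2d did not pass.

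Of 22 known NFAT target genes, all tested, 10 were higher, 3 lower and 9 did not pass (59.1% called, beside 65.2% of all tested genes, median log2 fold change 0.33), and 11 of the 22 were called with a change of at least 0.5, beside 28.5% of all tested genes. The 3 with the largest rises were effector genes: Xcl1, a chemokine, from a median of 11.5 CPM (7.86 to 13.4) to 54.8 (40.1 to 75.8), Fasl, the death ligand, from 16.2 to 46.2, and Tnf from 14.9 to 32.4. Their log2 fold changes were 2.39 (standard error 0.14), 1.55 (0.10) and 1.16 (0.17), and none of the 3 had overlapping groups. The checkpoint gene Ctla4 fell from a median of 64.1 CPM (53.0 to 85.8) to 25.1 (19.8 to 33.7) (log2 change -1.34, standard error 0.13, adjusted p = 2.9e-07). Egr2, an early target in anergic T cells, fell from 21.8 to 14.4 CPM (-0.39, standard error 0.16, adjusted p = 0.043), with BC CML replicate 5 above every CP CML mouse. Its call was lost in 12 of 14 fits with a mouse left out, with no filter on low counts (adjusted p = 0.062) and with the myeloid score (adjusted p = 0.116). Without BC CML replicate 5 the value was -0.60 (adjusted p = 0.00016). The log2 fold change of Egr2 lay between -0.60 and -0.32 with a mouse left out and between -0.83 and -0.39 over the other alternative fits. Of the 22 genes, 5 were called with the naive score and 8 with the myeloid score, beside 2297 and 5947 of all 12248 tested genes. With the naive score Tnf (0.61, adjusted p = 0.420), Ctla4 (-1.03, adjusted p = 0.096) and Egr2 (-0.83, adjusted p = 0.284) were among those no longer called. The third lower gene, Il2, named after its values were seen, was barely detected (-0.90, adjusted p = 0.047). The list also holds the checkpoint genes Havcr2 and Lag3 and the factor gene Tox, none of which was called lower. Pdcd1, the PD-1 gene, did not pass, with overlapping mice (0.29, adjusted p = 0.090). Without BC CML replicate 5 its value was 0.093 (adjusted p = 0.328), and with the replicate number as a block it passed (0.29, adjusted p = 0.038). Foxp3 and Ctla4 also mark regulatory T cells. Of the other 3 of the 5 regulatory T cell markers, Ikzf2 (0.62) and Tnfrsf9 (0.97) rose and Il2ra did not pass (0.12), and the summed level of the 5 had a median of 490 CPM in CP CML (444 to 515) and 554 in BC CML (426 to 604). Their score, in which each gene counts alike, lay the other way, between 6.30 and 6.501 in CP CML and between 5.92 and 6.30 in BC CML. Xcl1 and Fasl are also made by NK cells, whose summed markers were between 61.6 and 81.4 CPM in CP CML and between 187 and 313 in BC CML. The part of these cells in the results was not tested.

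**Figure D4:**
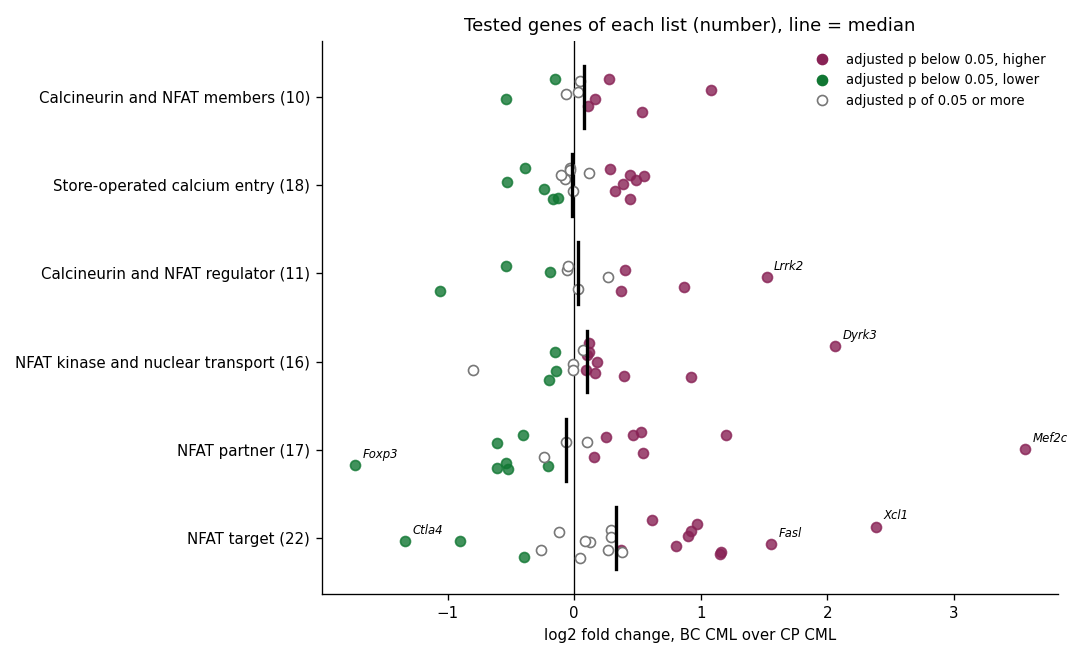
Log2 fold change of BC CML over CP CML (x axis) for every tested gene of the members and of the 5 other lists, 1 point per gene, filled where the adjusted p-value was below 0.05, with a black line at each list's median. The medians lie between -0.07 and 0.33, and the partner and target lists spread widest, from Foxp3 (-1.73) and Ctla4 (-1.34) to Mef2c (3.56) and Xcl1 (2.39).

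The 3 larger changes kept their direction and their side of the threshold under each of the 10 alternative fits and in each of the 14 fits with a mouse left out. Over the alternatives the log2 fold change lay between 0.98 and 1.09 for Ppp3ca, between 0.53 and 0.72 for Ppp3cc and between -0.62 and -0.53 for Nfatc3. Adjusted for the naive T cell score they had 1.06 (adjusted p = 0.000388), 0.70 (adjusted p = 0.030) and -0.59 (adjusted p = 0.0019). That score follows the group closely (correlation -0.94 over the 14 mice), and with it Nfatc1 had -0.18, Nfatc2 -0.42 and Nfat5 -0.39, none with an adjusted p-value below 0.05. Like Ppp3r1, Rcan1 lost its call with it (0.09, adjusted p = 0.807). With the myeloid score, Ppp3ca had 1.06, Ppp3cc 0.70, Nfatc3 -0.61 and Ppp3r1 -0.22, all below that threshold, while Nfat5 (adjusted p = 0.051), Nfatc1 (0.07, adjusted p = 0.393) and Rcan1 (0.13, adjusted p = 0.329) were no longer called.

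**Figure D5:**
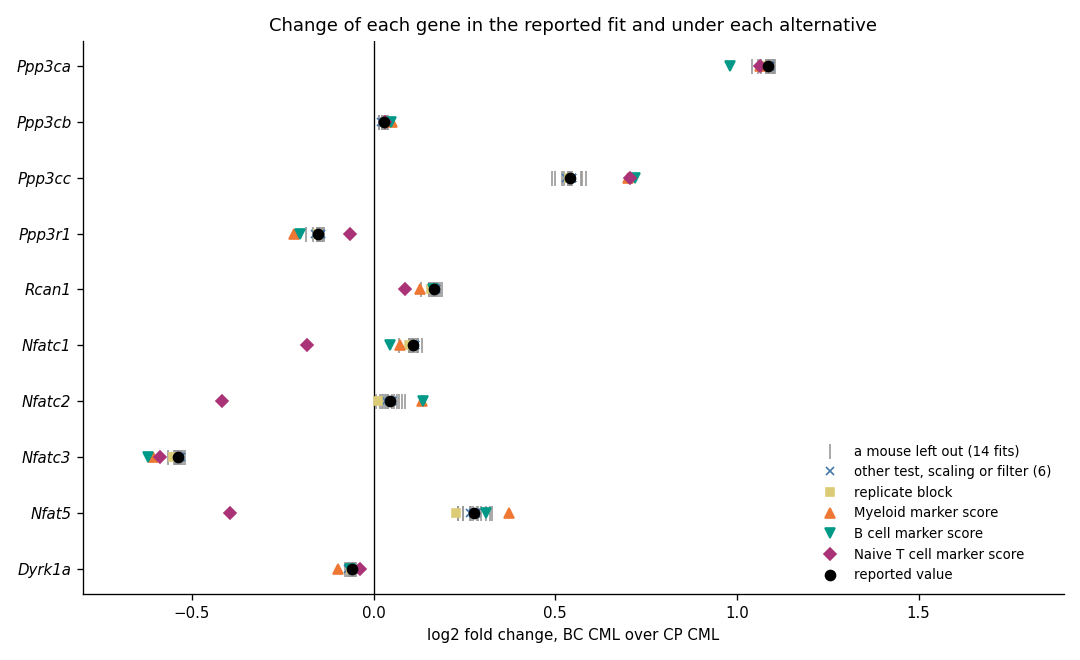
Log2 fold change of BC CML over CP CML (x axis) for each of the 10 genes in the reported fit (black circle) and in each alternative fit (other symbols). The symbols for Ppp3ca, Ppp3cc and Nfatc3 stay on 1 side of 0 in all fits, and Nfatc1, Nfatc2 and Nfat5 cross 0 in the fit with the naive score (-0.18, -0.42 and -0.39).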

How the data were processed

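The RNA-seq libraries came from spleen T cells of 8 CP CML and 6 BC CML mice. The authors trimmed the reads of 101 bases with Trimmomatic and FASTP, aligned them to mm10 with STAR 2.6.0, counted them with HTSeq 0.11.1 and deposited raw counts per gene with no normalization. The annotation and strand setting used for counting are not given in the sources used here.

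The counts were filtered by filterByExpr (12248 of 24091 genes kept), normalized by TMM and tested across all genes with edgeR 4.0.16 (R 4.3.3) by the quasi-likelihood test with no covariate, at an adjusted p-value of 0.05. Standard errors were derived from the fold change and the F statistic, and intervals span 2 of them. The fit was tested on simulated counts. CPM was divided by the listed gene length for levels between genes. Depth was between 15703702 and 19914531 reads, and the standard errors include counting error as well as the spread between mice.

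Marker scores were means of log2 CPM (prior count 2). Alternative fits used DESeq2 1.42.0 or the likelihood ratio test, scaled by RLE or by library size alone, skipped the filter or kept genes above 1 CPM in 6 or more mice, blocked on the replicate number, added a myeloid, naive T cell or B cell score, or left out each mouse in turn. Replicate pairs differed by more than sampling noise (chi-square per degree of freedom 3.03 to 22.8).

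The members and gene lists were chosen with earlier results of these data known. Named genes were the members, Mir142, Tgfbr1, Tgfbr2, Pdcd1 and, from each other list, the 3 largest called rises and falls with an average log2 CPM of at least 3. Stimate was listed as Tmem110. Sequences were taken from RefSeq (GRCm38.p6) and GENCODE vM21, and promoter windows were found for 7 members.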

Additional observations from a re-analysis of the deposited data

Results flagged for a closer look

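Single mice stood apart from the rest of their group in 10 of 129 groups of values examined, where chance gives about 1 in 20; the groups share mice and are not independent. In each the gap to the nearest mouse was large against the range of the group.

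BC CML replicate 6 was the mouse concerned in 4 of them. It had 178 CPM of Ppp3ca against 157 in the next, 89.2 CPM of Mef2c against 59.3, a share of Nfatc3 in the NFATc genes of 54.2% against 50.3%, and 6.74 CPM of summed megakaryocyte markers against 3.45. It also had the highest myeloid and B cell marker scores of all mice. Without it, Ppp3ca had a log2 fold change of 1.04, Ppp3cc 0.58, Nfatc3 -0.57 and Ppp3r1 -0.19.

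BC CML replicate 5 had 49.2 CPM of Pdcd1 against 28.8 in the next mouse and 26.7 CPM of Egr2 against 17.2. It was also the highest mouse for Nfatc1 and Rcan1. Its label is the only 1 of the 14 with letters, RP, after the mouse number, which the sources used here do not explain. Without it Pdcd1 had a log2 fold change of 0.093, Egr2 -0.60, Nfatc1 0.07 and Rcan1 0.13. CP CML replicate 7 had 85.8 CPM of Ctla4 against 67.3, CP CML replicate 2 had 33.2 CPM of Nfatc2ip against 35.9 in the next lowest, and CP CML replicate 4 had a sum of the catalytic calcineurin genes of 133 RPKM against 124. BC CML replicate 2 had 16145537 total reads against 18319039 in the next lowest. The part of cell makeup in these values was not tested.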

How the results depend on the processing

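The number of members called (7) was 4 with the replicate number as a block, 4 with the myeloid score, 3 with the naive T cell score and 4 with the B cell score as a covariate, and between 5 and 7 with a mouse left out. Of all tested genes, 7986 of 12248 were called in the reported fit and 7280 of 12175 with the block. With the myeloid, naive and B cell scores 5947, 2297 and 6328 of 12248 were called. Those called higher (5) were 3 with the likelihood ratio test, 3 with library size alone and 3 with no filter, since Nfatc1 and Rcan1 left the threshold, 2 with the block and with each of the 3 scores, and between 3 and 5 with a mouse left out (3 without any one of CP CML replicates 2, 3, 4, 7 and 8 and BC CML replicates 1, 2 and 5). Those called lower (2) were 1 with the naive score and 2 in each fit with a mouse left out. With the naive score 3 calcium entry, 2 regulator, 3 kinase and transport, 5 partner and 5 target genes were called, and with the myeloid score 6 kinase and transport and 8 target genes. With a mouse left out these lists had 12 to 14, 7 to 8, 9 to 13, 13 to 14 and 11 to 15 called. The naive score turned the direction of Nfatc1 (-0.18), Nfatc2 (-0.42), Nfat5 (-0.39), Pdcd1 (-0.070) and Maf (-0.20). Fewer genes were called overall with a score (2297 with the naive score). The cause was not tested.

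Mice with the same replicate number did not deviate together: the 6 same-numbered pairs had a mean correlation of deviations of -0.02, and 2 of 6 were over 0.1. With the block, which uses 12 mice, the rises of Nfatc1 (0.10), Nfat5 (0.23) and Rcan1 (0.16) left the threshold and Pdcd1 (0.29) passed it. The rise of Rcan1 rests on a gene with about 9 CPM. Egr2 kept its call only without CP CML replicate 2 or BC CML replicate 5, and lost it in the other 12 of 14 fits with a mouse left out.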

Other observations

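Nfat5 and Nfatc2 put the CP CML mice in the same order. From the highest to the lowest mouse the order was replicates 5, 6, 3, 4, 8, 1, 7 and 2 for both genes, which lie on different chromosomes. Replicate 5 had 391 CPM of Nfat5 and 161 CPM of Nfatc2, and replicate 2 had 248 and 124. In BC CML, replicates 1 and 2 were the highest and replicates 5 and 6 the lowest for both genes, in a different order. The naive T cell marker score was lowest in CP CML replicates 5, 6 and 3 (8.67, 8.75 and 8.78, mean log2 CPM) and highest in replicates 7 and 2 (8.945 and 8.94), and its part in the order was not tested. The shared order was noticed after the values were seen.

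Genes with the 8mer of miR-142-3p in their 3′UTR, of which none is a member, were called higher in BC CML in 57.4% of 350 cases and lower in 15.1%, beside 33.5% and 32.8% of all 11503 tested genes with a 3′UTR. For the 8mer of miR-142-5p, which Nfat5 holds, 41.8% of 600 genes were higher and 27.0% lower. Of the 1394 genes with a match of any kind to the 3p arm, as in Ppp3ca and Nfat5, 48.9% were higher and 21.95% lower. Of the 2698 with any match to the 5p arm, as in Ppp3ca, Nfat5, Nfatc2, Nfatc3 and Ppp3r1, 39.9% were higher and 28.5% lower, and of the 7975 with no match to either arm 30.0% and 35.3%. Genes with a match have longer 3′UTRs, with medians of 2480 and 2629.5 bases for the 8mers of the 3p and 5p arm, 2521.5 and 2387 for any match to them, 856 for no match and 1186 for all. These shares are descriptions without a test.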
